A study of Mus musculus with 12 samples.

Results

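The libraries compared here are the 4 taken 7 days after muscle injury, 2 of mice labelled as Sestrin1,2 knockout and 2 of mice labelled as wild type, out of 12 libraries in the series. They were chosen by their labels alone. All mice are labelled C57BL/6J and were 2 to 3 months old, and the cells are labelled as muscle stem cells sorted by flow cytometry from the tibialis anterior, gastrocnemius and quadriceps. The other libraries come from the same 2 genotypes before injury (day 0, 2 libraries each) and 21 days after it. The kind of injury, the surface markers of the sort, the design of the knockout alleles and the sex of the mice are not given in the sources used here. The labels also do not say whether the 2 libraries of a group came from separate mice, so that p-values measure the spread between libraries, which may be technical.

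Muscle stem cells lie beside the muscle fibre, marked by the transcription factor Pax7, and are at rest in uninjured muscle. After injury they divide, switch on Myf5, Myod1 and then Myog, and their progeny fuse into new fibres, while part of them returns to rest. Sestrins are stress-induced proteins that restrain the growth kinase complex mTORC1 through the GATOR complexes, Sesn2 being a sensor of leucine, and Sesn1 and Sesn2 are themselves targets of p53, ATF4 or NRF2. At day 7 the comparison asks which gene programs differ between the genotypes during repair.

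The 4 libraries held between 29038194 and 38950614 estimated counts, and between 17751 and 18043 genes had counts. Replicates correlated at 0.979 in wild type and 0.972 in knockout (Pearson, log2 CPM, across genes), against 0.967 to 0.972 between genotypes. The day 21 libraries were left out, since Sesn2 there went against the labels: it stood at 3.37 and 34.1 TPM under the wild-type label and at 3.87 and 45.7 TPM under the knockout label. The day 0 libraries stayed in the fit to share its estimate of spread.

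The label of the cells was checked against markers. The 12 markers of muscle stem cells and myoblasts summed to 1680.3 and 1666 TPM in wild type and 1995 and 1621 TPM in knockout; 4 of them, Sdc4, Cxcr4, Fgfr4 and Ncam1, were called lower in the knockout and 0 higher. Those of fibro-adipogenic cells, the connective tissue progenitors of muscle, summed to 14098 and 15252 TPM in wild type and 15977 and 15496 TPM in knockout, led by Col1a1, Col3a1 and Dcn, and those of tenocytes to 4589.8 and 4286 TPM in wild type and 4621 and 5282 TPM in knockout. Both sums exceeded that of the stem cell list in every library and were higher in both knockout libraries than in either wild-type library. In such bulk samples fewer cells of a type and less RNA per cell cannot be told apart. Macrophage markers summed to 455 and 648 TPM in wild type and 652 and 393 TPM in knockout, and endothelial markers to 162 and 273 TPM in wild type and 233 and 135 TPM in knockout; for both, the genotypes overlapped. Markers of mature muscle fibres overlapped too, at 1245 and 1975 TPM in wild type and 2709 and 1783 TPM in knockout. Of the 13 tested macrophage markers 1 had a positive fold change (median -0.50). Tyrobp alone among them was called, and lower (7.69%, against 2.66% of all genes). Its log2 fold change was -8.70 (adjusted p = 0.011, edgeR) and ran from -9.16 to -0.70 over the alternatives. The 9 markers of pericytes and smooth muscle did not overlap, at 2207 and 2205 TPM in wild type and 3234 and 3222 TPM in knockout. Markers of red blood cells were lower in the knockout, at 793 and 1073 TPM in wild type and 329 and 765 TPM in knockout, and the sums of neutrophil, lymphocyte and skin markers, each under 50 TPM, were lower too. In all, the sums of 7 of 13 marker lists did not overlap between the genotypes, 3 higher and 4 lower in the knockout. Among single genes, 47.9% of all those tested did not overlap, so this count is not read as a difference in cell types. What these cells contribute to the differences was not tested. Tcf21, Ly6g and Lep were at 0 in all 4 libraries.

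**Figure D1:**
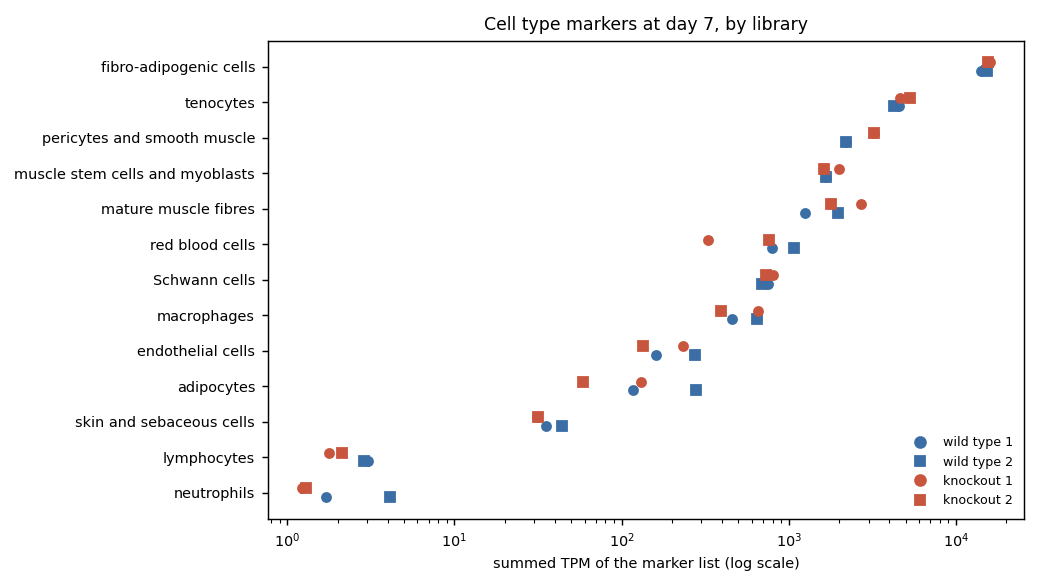
Summed TPM of each list of cell type markers in the 4 day 7 libraries (log axis, 1 point per library, blue wild type, red knockout). The pericyte and smooth muscle, fibro-adipogenic and tenocyte sums of the 2 knockout libraries lie above both wild-type libraries, and fibro-adipogenic sums are the highest of all lists in every library.

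Sesn2 (GRCm38 chr4:132492032-132510501, minus strand) stood at 45.2 and 48.6 CPM in wild type and 2.37 and 1.96 CPM in knockout. The knockout libraries were low in both replicates (log2 fold change -4.42, SE 0.16, adjusted p = 6.19e-06, by the quasi-likelihood test of edgeR with Benjamini-Hochberg adjustment, which all adjusted p below use). With all 12 libraries in the fit this call was lost (adjusted p = 0.17). Sesn1 (chr10:41809935-41908424, plus strand) stood at 84.5 and 69.5 CPM in wild type and 28.6 and 23.0 CPM in knockout (log2 fold change -1.58, SE 0.13, adjusted p = 0.000309). Its knockout libraries thus kept about 0.335 of the wild-type level, and the groups did not overlap. Sesn3, the remaining family member, stood at 5.90 and 5.06 CPM in wild type and 8.30 and 7.51 CPM in knockout, higher in both knockout libraries but not past the threshold (log2 fold change 0.53, SE 0.25, adjusted p = 0.262).

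Of 15672 genes tested, 1169 were called at an adjusted p under 0.05, which is 7.46% of them. Among them 752 (4.80%) were higher and 417 (2.66%) lower in the knockout. Changes were mostly small: the median size among called genes was 0.59 on the log2 scale, and 211 genes (1.35% of those tested) were called with a change of at least 2-fold, 130 of them higher and 81 lower. Wild-type and knockout libraries did not overlap at any called gene, against 47.9% of all genes tested. Where a lack of overlap is given below for a called gene, it thus adds nothing to the call. At an unadjusted p under 0.05 there were 3333 genes. The count depended on single libraries: it was 406 without wild-type replicate 1, 633 without wild-type replicate 2 and 1792 without knockout replicate 2. It was 429 when the day 7 libraries were fitted alone.

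**Figure D2:**
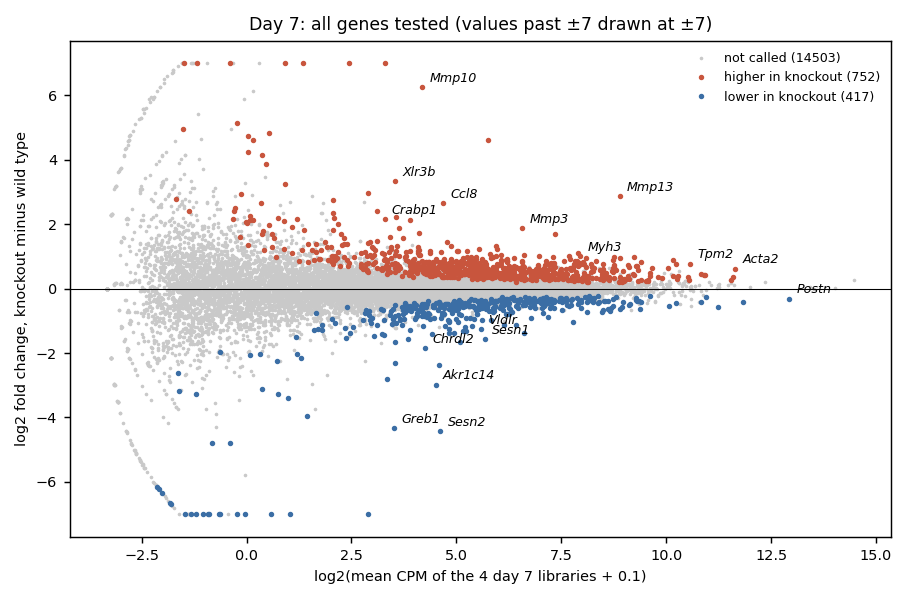
Log2 fold change of knockout minus wild type at day 7 against mean CPM on a log2 scale for the 15672 genes tested, 1 point per gene. Called genes are red where higher (752) and blue where lower (417) in the knockout; Sesn2 and Mmp10 lie far from the other genes of their abundance.

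Before injury 6091 genes were called between the genotypes (38.9% of those tested). They include 749 of the genes called at day 7, which is 64.1% of the day 7 calls and 12.3% of the day 0 calls. Of these 749 genes, 492 differed in the same direction on both days and 257 in opposite directions. The genotype difference itself changed between day 0 and day 7 (interaction, adjusted p under 0.05) for 3887 genes, 24.8% of those tested.

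The genes that fell at least 2-fold in the knockout and were named for the smallest adjusted p or, as Greb1 was, for the largest change were, besides Sesn1 and Sesn2, a mixed group of enzymes, transporters and other proteins. Akr1c14, a hydroxysteroid dehydrogenase, stood at 42.2 and 38.5 CPM in wild type and 5.10 and 5.11 CPM in knockout (log2 fold change -2.98, SE 0.11, adjusted p = 6.19e-06). Both knockout libraries were thus near 0.127 of wild type. Before injury the same gene was a little higher in the knockout, at 24.1 and 24.4 CPM in wild type and 35.8 and 33.9 CPM in knockout, and the change of direction passed the interaction test (-3.50, adjusted p = 1.27e-05). Greb1, known as an oestrogen-responsive gene, was at 18.7 and 24.6 CPM in wild type and 0.707 and 1.49 CPM in knockout (log2 fold change -4.33, SE 0.37, adjusted p = 0.000473), and it too was higher in the knockout at day 0, at 2.48 and 4.10 CPM in wild type and 16.5 and 18.5 CPM in knockout. Its day 7 call was lost with limma on the unfiltered log2 TPM and on the batch-corrected values (highest adjusted p = 0.0741). Dbh, which makes noradrenaline from dopamine, was at 20.5 and 17.9 CPM in wild type and 3.08 and 4.65 CPM in knockout (log2 fold change -2.32, adjusted p = 0.000415). Myh14, a nonmuscle myosin heavy chain, was at 18.2 and 16.9 CPM in wild type and 3.15 and 1.79 CPM in knockout (log2 fold change -2.80, adjusted p = 0.000349). These genes all had knockout libraries below the lowest wild-type library at day 7 and above the highest at day 0. Smaller falls were seen for Car12, a carbonic anhydrase (log2 fold change -1.33, adjusted p = 0.000178), Slc2a12, a glucose transporter (log2 fold change -1.33, adjusted p = 0.000178), Iqgap2, a scaffold protein (log2 fold change -1.04, adjusted p = 0.000201), and Fbxw17 (log2 fold change -1.24, adjusted p = 0.000324).

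The rising genes named for the smallest adjusted p or, as Tnn and Il11 were, for the largest change held several secreted proteins. Ccl8, a chemokine that attracts monocytes, stood at 6.81 and 7.21 CPM in wild type and 38.9 and 49.0 CPM in knockout (log2 fold change 2.65, SE 0.19, adjusted p = 0.000185). Spp1, the matrix phosphoprotein osteopontin, was at 154 and 145 CPM in wild type and 321 and 326 CPM in knockout (log2 fold change 1.11, SE 0.07, adjusted p = 0.000127). Tnn, a tenascin, was at 1.01 and 2.28 CPM in wild type and 11.7 and 14.2 CPM in knockout (log2 fold change 2.98, adjusted p = 0.00322). Il11, an interleukin of the IL-6 family, was at 1.30 and 0.795 CPM in wild type and 6.13 and 7.94 CPM in knockout (log2 fold change 2.74, adjusted p = 0.00435). In each of the 4 genes both knockout libraries lay above both wild-type libraries. Rasd1, a small GTPase induced by glucocorticoids, was at 68.2 and 87.0 CPM in wild type and 254 and 244 CPM in knockout (log2 fold change 1.68, adjusted p = 0.000176). Hpgd, which breaks down prostaglandins, was at 6.21 and 7.18 CPM in wild type and 20.1 and 19.3 CPM in knockout (log2 fold change 1.56, adjusted p = 0.000309). Avpr1a, a vasopressin receptor, was at 40.2 and 40.4 CPM in wild type and 85.0 and 78.5 CPM in knockout (log2 fold change 1.02, adjusted p = 0.000349). Of the 18 genes besides the Sestrins that were named for the smallest adjusted p, 15 kept their calls under every alternative that tested them, and with all 12 libraries Hpgd, Avpr1a and S100a4 did not (adjusted p = 0.0694, 0.197 and 0.0585). Rasd1 and Avpr1a were also higher in the knockout before injury, with day 0 differences of 0.79 and 0.87 on the log2 scale, whereas the Hpgd difference at day 0 was -0.35. S100a4, a calcium-binding protein of motile cells, rose from 26.5 and 28.6 CPM to 64.8 and 65.9 CPM (log2 fold change 1.24, adjusted p = 0.000178). Xlr3b rose from 1.66 and 2.46 to 17.1 and 24.8 CPM (log2 fold change 3.35, adjusted p = 0.000178). However, 69% of its 31-base words also lie in transcripts of other genes, and how the counting divided reads between them is not known.

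**Figure D3:**
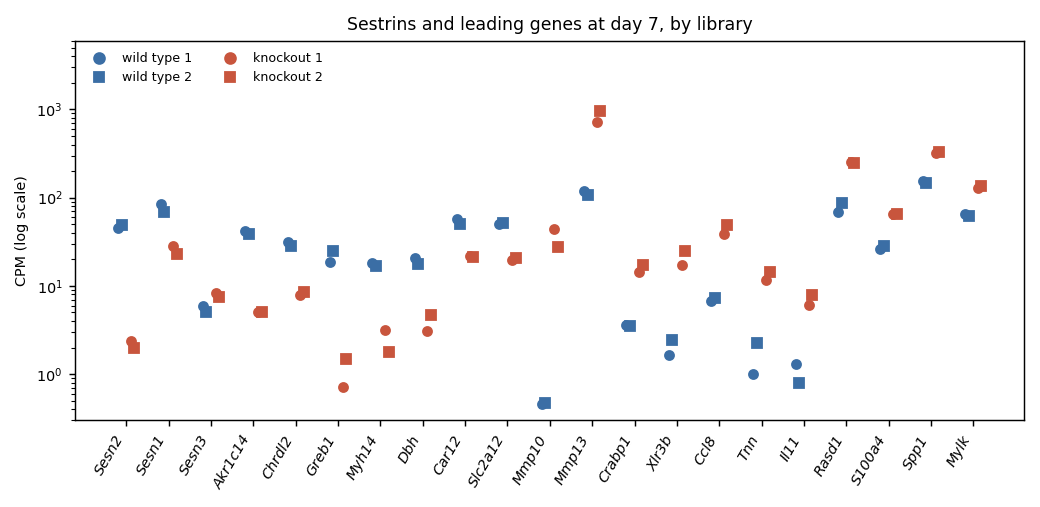
CPM on a log axis of the 3 Sestrins and the leading genes in each day 7 library (circle replicate 1, square replicate 2, blue wild type, red knockout). The points of the genotypes are apart for every gene shown, which was a condition for naming the leading genes. The gap is largest for Sesn2, Greb1 and Mmp10.

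Of 35 tested genes of matrix proteases and their inhibitors 9 rose, 0 fell and 26 were not called, with a median log2 fold change of 0.23, against 0 over all genes tested; 4.80% of all genes rose and 2.66% fell. Mmp10, stromelysin 2, and Mmp3, stromelysin 1, cut proteoglycans and activate other proteases, and Mmp13, collagenase 3, cuts fibrillar collagen. The promoters of these 3 genes, which lie in one cluster on chromosome 9, are printed because the genes rose together. Each runs from 250 bases before to 50 bases after the RefSeq start site (GRCm38.p6, plus strand, chr9:7502092-7502391 for Mmp10, chr9:7445572-7445871 for Mmp3 and chr9:7272264-7272563 for Mmp13). Capitals mark TGAGTCA or its reverse complement TGACTCA, the letters bound by AP-1 factors.
Mmp10: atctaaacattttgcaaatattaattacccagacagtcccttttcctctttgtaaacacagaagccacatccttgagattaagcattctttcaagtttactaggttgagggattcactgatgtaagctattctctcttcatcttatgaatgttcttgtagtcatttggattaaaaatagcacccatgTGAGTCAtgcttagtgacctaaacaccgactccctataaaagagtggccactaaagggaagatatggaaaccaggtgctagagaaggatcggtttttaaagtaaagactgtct
Mmp3: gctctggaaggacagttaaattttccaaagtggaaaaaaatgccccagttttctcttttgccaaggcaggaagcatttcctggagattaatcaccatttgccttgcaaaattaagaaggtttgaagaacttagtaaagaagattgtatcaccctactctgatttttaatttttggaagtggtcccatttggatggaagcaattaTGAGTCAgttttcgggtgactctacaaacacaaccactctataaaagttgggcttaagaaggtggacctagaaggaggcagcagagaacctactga
Mmp13: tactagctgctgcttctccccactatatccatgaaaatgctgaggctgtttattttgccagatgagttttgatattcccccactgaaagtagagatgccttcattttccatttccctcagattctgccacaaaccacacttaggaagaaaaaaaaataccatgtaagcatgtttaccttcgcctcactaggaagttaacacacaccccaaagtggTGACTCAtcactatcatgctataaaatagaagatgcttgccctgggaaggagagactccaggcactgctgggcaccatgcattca

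These letters began 63, 46 and 35 bases before the start site in Mmp10, Mmp3 and Mmp13. On either strand they occurred in 5.20% of the 32851 RefSeq promoters of this length. Among 25 tested genes of the list with a promoter in the table, 6 held them: Mmp10, Mmp3, Mmp13 and Plaur, which rose, and Mmp12 and Adam19, which were not called. In all, 8 motifs were looked for in the promoters of 38 genes, and both the genes and the 2 motifs shown were chosen after the values had been seen. A match of letters is a description and shows no binding.

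Mmp10 was nearly silent in wild type, at 0.458 and 0.477 CPM in wild type and 43.7 and 27.9 CPM in knockout, and the knockout libraries stood 76.7 times higher (log2 fold change 6.25, SE 0.32, adjusted p = 0.000206). Mmp13 was far more abundant, at 120.4 and 108 CPM in wild type and 714 and 961 CPM in knockout (log2 fold change 2.87, SE 0.16, adjusted p = 0.00103). With all 12 libraries the call of Mmp13 was lost (adjusted p = 0.0693). Neither Mmp10 nor Mmp13 had a single rounded estimated count in any day 0 library, so that both appeared only among the injured samples of the 8 libraries. Mmp3 stood at 43.4 and 38.0 CPM in wild type and 113 and 186 CPM in knockout (log2 fold change 1.88, SE 0.22, adjusted p = 0.00286). All 3 genes were higher in both knockout libraries, and knockout replicate 1 was the higher one for Mmp10 and replicate 2 for Mmp13 and Mmp3. Mmp10 and Mmp3 share 11.9% and 14.6% of their 31-base words with other genes, Mmp13 none.

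Serpine2, an inhibitor of thrombin and plasminogen activators, was at 192 and 193 CPM in wild type and 341 and 316 CPM in knockout (log2 fold change 0.77, adjusted p = 0.00023). Plaur, the urokinase receptor, was at 53.8 and 58.8 CPM in wild type and 78.8 and 77.8 CPM in knockout (log2 fold change 0.48, adjusted p = 0.00766). Adamts4, an aggrecanase, was at 393 and 462 CPM in wild type and 748 and 614 CPM in knockout (log2 fold change 0.67, adjusted p = 0.00706). The inhibitors Timp2 and Timp3 rose less (log2 fold change 0.35, adjusted p = 0.00426 and log2 fold change 0.38, adjusted p = 0.0055). Each of these 5 genes was higher in both knockout libraries. Mmp9, a gelatinase, was at 7.92 and 3.02 CPM in wild type and 30.2 and 18.1 CPM in knockout (log2 fold change 2.14, adjusted p = 0.0312), a call that 13 of 19 alternatives did not keep. The gelatinase Mmp2 and the membrane protease Mmp14, both abundant, were not called: Mmp2 had a log2 fold change of 0.08 (adjusted p = 0.473) and Mmp14 of 0.11 (adjusted p = 0.281). Between 3 and 12 genes of the list rose under the alternatives, the lowest count in the fit of all 12 libraries.

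Retinoic acid, made from vitamin A, acts through nuclear receptors that bind paired repeats of a short sequence in their target genes. Of 17 tested genes of retinoic acid handling 8 rose, 0 fell and 9 were not called, a median of 0.36, against the 4.80% and 2.66% of all genes. The promoters of Cyp26a1, the enzyme that degrades retinoic acid (chr19:37697558-37697857, plus strand), and of Rarb, a retinoic acid receptor (chr14:16575427-16575726, minus strand; both RefSeq, GRCm38.p6), are shown because both genes rose and hold the letters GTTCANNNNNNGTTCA, or their reverse complement TGAACNNNNNNTGAAC, in capitals.
Cyp26a1: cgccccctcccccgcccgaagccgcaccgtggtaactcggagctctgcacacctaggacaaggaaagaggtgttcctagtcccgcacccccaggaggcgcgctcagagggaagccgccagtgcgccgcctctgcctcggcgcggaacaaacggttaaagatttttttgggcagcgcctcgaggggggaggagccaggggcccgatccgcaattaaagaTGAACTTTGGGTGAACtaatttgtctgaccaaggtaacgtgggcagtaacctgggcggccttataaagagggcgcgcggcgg
Rarb: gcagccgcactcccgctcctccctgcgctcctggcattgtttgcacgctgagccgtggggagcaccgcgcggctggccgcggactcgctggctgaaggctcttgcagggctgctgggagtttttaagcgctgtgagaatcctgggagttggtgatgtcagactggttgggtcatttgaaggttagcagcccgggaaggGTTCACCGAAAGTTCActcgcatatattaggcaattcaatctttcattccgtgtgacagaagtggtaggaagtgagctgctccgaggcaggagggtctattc

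They began 32 and 52 bases before the start site. The same letters stood in 0.0761% of all promoters of the table and in those of 2 of the 13 tested list genes found there, which are these 2.

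Cyp26a1 was at 1.44 and 1.19 CPM in wild type and 4.44 and 9.13 CPM in knockout (log2 fold change 2.35, SE 0.34, adjusted p = 0.0055), the knockout libraries differing among themselves but both above wild type. Rarb was at 2.26 and 2.70 CPM in wild type and 7.27 and 7.37 CPM in knockout (log2 fold change 1.56, SE 0.26, adjusted p = 0.00794). Among the binding proteins, Crabp1, which holds retinoic acid in the cytosol, was at 3.56 and 3.50 CPM in wild type and 14.4 and 17.3 CPM in knockout (log2 fold change 2.16, SE 0.14, adjusted p = 0.000178), about 4.49 times the wild-type level. Before injury Crabp1 ran the other way, at 51.6 and 57.4 CPM in wild type and 5.54 and 4.87 CPM in knockout, and the interaction was 5.55 (adjusted p = 7.8e-06). In wild type it was thus much lower after injury than before, while in the knockout it was higher. Crabp2, which passes retinoic acid to its receptors, rose less (log2 fold change 0.60, adjusted p = 0.0327), and 13 of 20 alternatives lost that call.

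Genes of retinol uptake and of retinaldehyde turnover were among those that rose. Stra6, the receptor that takes up retinol, was at 2.00 and 2.33 CPM in wild type and 5.78 and 4.72 CPM in knockout (log2 fold change 1.28, adjusted p = 0.00178). Rbp4, the carrier of retinol in blood, was at 5.61 and 4.40 CPM in wild type and 11.0 and 12.2 CPM in knockout (log2 fold change 1.21, adjusted p = 0.0133). Rdh10, which oxidises retinol to retinaldehyde, was at 50.6 and 46.9 CPM in wild type and 71.3 and 76.0 CPM in knockout (log2 fold change 0.59, adjusted p = 0.00465). Dhrs3, which reduces retinaldehyde back, was at 26.6 and 27.1 CPM in wild type and 49.0 and 53.7 CPM in knockout (log2 fold change 0.93, adjusted p = 0.000417). All 4 were higher in both knockout libraries than in either wild-type library. The retinaldehyde dehydrogenases Aldh1a1 and Aldh1a2, which make retinoic acid itself, had log2 fold changes of -0.07 and -0.15 (adjusted p = 0.847 and 0.818), and the receptors Rara and Rarg of 0.15 and 0.36 (adjusted p = 0.569 and 0.0853). Counts of rising genes in this list ran from 3 to 10 over the alternatives, and none fell under any of them.

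Of 24 tested genes of the resting stem cell 8 fell (33.3%, against 2.66% of all genes), 0 rose and 16 were not called, with a median of -0.30. Chrdl2, a secreted BMP antagonist of the chordin family, was at 31.3 and 28.2 CPM in wild type and 7.92 and 8.60 CPM in knockout (log2 fold change -1.85, SE 0.09, adjusted p = 5.35e-05). The knockout was below wild type before injury as well, at 157 and 158 CPM in wild type and 77.1 and 70.6 CPM in knockout, and the fall was larger at day 7 (interaction -0.76, adjusted p = 0.00376). Cdkn1c, the cell cycle inhibitor p57, was at 1439 and 1335 CPM in wild type and 1036 and 988 CPM in knockout (log2 fold change -0.46, adjusted p = 0.00286). Fgfr4, a fibroblast growth factor receptor, was at 395 and 368 CPM in wild type and 286 and 272 CPM in knockout (log2 fold change -0.45, adjusted p = 0.00418). Spry1, an inhibitor of growth factor signalling that keeps these cells at rest, was at 200.2 and 197 CPM in wild type and 153 and 150.4 CPM in knockout (log2 fold change -0.39, adjusted p = 0.00689). Both knockout libraries lay below both wild-type libraries in each of these genes at day 7. In wild type Cdkn1c and Fgfr4 were higher at day 7 (means of 1387 and 382 CPM) than before injury (282 and 250 CPM), whereas Chrdl2 was lower. Cdkn1c and Fgfr4 were also lower in the knockout at day 0 (log2 fold change -0.84 and -0.54, adjusted p = 4.76e-05 and 0.000418).

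The surface proteins Sdc4, Ncam1 and Cxcr4 fell too. Sdc4, a heparan sulfate proteoglycan, was at 154 and 145 CPM in wild type and 107 and 113 CPM in knockout (log2 fold change -0.44, adjusted p = 0.005). Ncam1 was at 337 and 326 CPM in wild type and 248 and 268 CPM in knockout (log2 fold change -0.36, adjusted p = 0.00799). Cxcr4, the receptor of Cxcl12, was at 41.1 and 36.7 CPM in wild type and 21.9 and 27.0 CPM in knockout (log2 fold change -0.67, adjusted p = 0.0154). Heyl, a target of Notch, fell with log2 fold change -0.31, adjusted p = 0.0273, a call kept by 8 of 20 alternatives. Sdc4, Ncam1, Cxcr4 and Fgfr4 are also the 4 called among the 12 markers of muscle stem cells and myoblasts (33.3% lower, against 2.66% of all genes; median -0.25). The part of these cells in the difference was not tested, and the summed level of the markers overlapped between the genotypes. Chrdl2 passed the threshold under all 20 alternatives. Without wild-type replicate 1, 2 of the 24 genes fell, and with all 12 libraries 1 did.

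The main regulators of the lineage did not pass the test. Pax7 was at 35.2 and 30.4 CPM in wild type and 23.2 and 26.9 CPM in knockout (log2 fold change -0.39, adjusted p = 0.196), both knockout libraries below wild type. Myf5 was at 99.4 and 88.0 CPM in wild type and 88.3 and 95.2 CPM in knockout (log2 fold change -0.03, adjusted p = 0.876), with overlapping groups. Myod1 was at 152 and 141 CPM in wild type and 139 and 127 CPM in knockout (log2 fold change -0.14, adjusted p = 0.457). Myog, the factor of terminal differentiation, was at 1012 and 915 CPM in wild type and 853 and 781 CPM in knockout (log2 fold change -0.24, adjusted p = 0.108). Before injury Pax7, Myf5 and Myog were lower and Myod1 higher in the knockout, with differences of -1.12, -0.95, -1.43 and 0.49, and for all 4 the interaction passed the test (adjusted p between 0.000385 and 0.0447). Of 14 regulatory factors tested 1, Mef2a, was called (7.14%, near the 7.46% of all genes), at 242 and 228 CPM in wild type and 156 and 176 CPM in knockout (log2 fold change -0.50, adjusted p = 0.00753).

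Of 43 tested sarcomere genes, those of the contractile apparatus, 17 rose (39.5%, against 4.80% of all genes), 0 fell and 26 were not called, with a median of 0.56. Myh3, the embryonic myosin heavy chain of newly formed fibres, was at 143 and 187 CPM in wild type and 360.4 and 302 CPM in knockout (log2 fold change 1.01, adjusted p = 0.00866). Tnnt2, the troponin T of developing muscle, was at 121 and 124 CPM in wild type and 182 and 199 CPM in knockout (log2 fold change 0.63, adjusted p = 0.00202). Nrap, which helps to assemble myofibrils, was at 6.72 and 6.89 CPM in wild type and 17.8 and 16.6 CPM in knockout (log2 fold change 1.34, adjusted p = 0.00753). Myom3, a protein of the M-band, was at 7.73 and 10.4 CPM in wild type and 22.5 and 18.3 CPM in knockout (log2 fold change 1.17, adjusted p = 0.00974). The tropomyosins Tpm1 and Tpm2 were at 730.4 and 876 CPM in wild type and 1543 and 1408 CPM in knockout (log2 fold change 0.88, adjusted p = 0.000853) and at 1023 and 1213 CPM in wild type and 2007 and 1802 CPM in knockout (log2 fold change 0.77, adjusted p = 0.00243). Both knockout libraries were above both wild-type libraries for all 6 genes at day 7. Before injury Tpm1 and Tpm2 were more abundant in wild type than at day 7, with means of 2006 and 2879 CPM, whereas Tnnt2 stood at 7.03 CPM. Tpm2 was then also higher in the knockout (log2 fold change 0.46, adjusted p = 0.00609).

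The adult myosins overlapped between the genotypes. Myh4 was at 67.2 and 174 CPM in wild type and 289.6 and 121 CPM in knockout (log2 fold change 0.77, adjusted p = 0.555). Myh1 was at 124 and 174 CPM in wild type and 175 and 89.1 CPM in knockout (log2 fold change -0.17, adjusted p = 0.83). Wild-type replicate 1 was the lowest library for Myh4, and it was also the lowest for the summed markers of mature fibres given above, of which 1 of 11, Actn3, was called. Without this library 4 sarcomere genes rose, and with the day 7 libraries alone 7 did. What the varying fibre RNA contributes to the difference was not tested.

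Of 23 tested genes of the acetylcholine receptor and of calcium release 5 rose (21.7%, against 4.80% of all genes), 0 fell and 18 were not called (median 0.43). Chrng, the gamma subunit of the fetal acetylcholine receptor, was at 30.7 and 39.2 CPM in wild type and 80.1 and 95.5 CPM in knockout (log2 fold change 1.33, adjusted p = 0.00152). Chrnd was at 19.6 and 27.2 CPM in wild type and 56.1 and 49.2 CPM in knockout (log2 fold change 1.17, adjusted p = 0.0195). Chrna1 was at 270.4 and 283 CPM in wild type and 393 and 435 CPM in knockout (log2 fold change 0.58, adjusted p = 0.00178). All 3 subunits were higher in both knockout libraries. Their calls were lost with all 12 libraries, and those of Chrng and Chrnd also with limma on the batch-corrected values. Before injury Chrna1 was lower in the knockout, by -1.54 on the log2 scale. Among 18 fusion genes 2 rose (11.1%, against 4.80% of all genes), 0 fell and 16 were not called. The 2 were the micropeptide myomixer, listed as Gm7325, at 21.0 and 27.5 CPM in wild type and 45.7 and 48.5 CPM in knockout (log2 fold change 0.96, adjusted p = 0.00551), and Cav3, the caveolin of muscle (log2 fold change 0.77, adjusted p = 0.0134). Both calls were lost with all 12 libraries, and that of Cav3 also with the day 7 libraries alone.

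**Figure D4:**
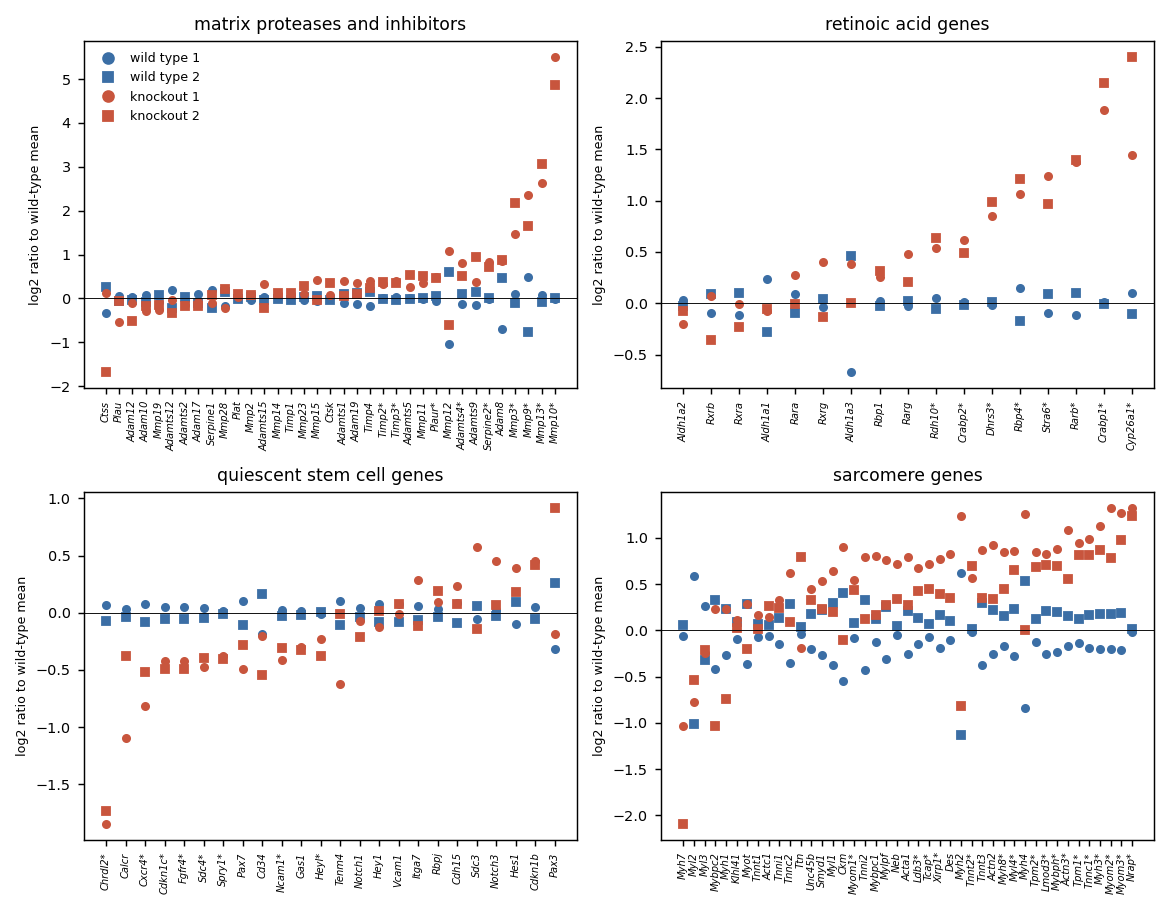
Log2 ratio of each library to the wild-type mean, computed as (CPM + 0.5) over (mean CPM + 0.5), for every tested member of 4 gene lists, in order of fold change; an asterisk marks called genes. Red knockout points lie above blue wild-type points for the called proteases, retinoic acid and sarcomere genes and below them for the called quiescence genes, and wild-type replicate 1 is low across the sarcomere genes.

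Acta2, Mylk, Myh11, Cnn1 and Tagln, contractile genes of smooth muscle and myofibroblasts, also rose; they come from several lists and were brought together after their values were seen. Acta2, smooth muscle actin, was at 2553 and 2502 CPM in wild type and 3812 and 3974 CPM in knockout (log2 fold change 0.62, SE 0.05, adjusted p = 0.000309). Mylk, the kinase of the myosin light chain, was at 65.3 and 61.8 CPM in wild type and 128 and 134 CPM in knockout (log2 fold change 1.05, SE 0.06, adjusted p = 0.000112). Myh11, smooth muscle myosin, was at 313 and 358 CPM in wild type and 536 and 532 CPM in knockout (log2 fold change 0.67, adjusted p = 0.00104). Cnn1, calponin, was at 55.1 and 49.6 CPM in wild type and 97.5 and 90.8 CPM in knockout (log2 fold change 0.85, adjusted p = 0.00158). Tagln, transgelin, was at 468 and 479 CPM in wild type and 752 and 804 CPM in knockout (log2 fold change 0.72, adjusted p = 0.000324), although 62.2% of the 31-base words of Tagln lie in other transcripts too. The genotypes were apart in all 5 genes, and the knockout was higher before injury as well for Acta2, Mylk, Myh11 and Tagln (0.51, 0.57, 0.95 and 0.32). Acta2, Myh11 and Cnn1 are the 3 of 9 markers of pericytes and smooth muscle that were called. Of 23 TGF-beta targets, the list that holds Acta2 and Tagln, 3 rose and 3 fell (13.0% each way, against 4.80% and 2.66% of all genes), the latter Skil, Ctgf and Tgfbr1. The defining pericyte genes Rgs5, Abcc9 and Kcnj8 had log2 fold changes of -0.32, -0.51 and 0.04 and were not called (adjusted p between 0.231 and 0.994). Rgs5 itself stood at 177 and 228 CPM in wild type and 186 and 139.6 CPM in knockout, with overlap.

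Matrix glycoproteins changed in both directions. Of 38 tested glycoproteins and proteoglycans 9 rose (23.7%) and 5 fell (13.2%), against 4.80% and 2.66% of all genes, and of 34 integrin and laminin genes 2 rose (5.88%) and 4 fell (11.8%). Tgfbi, an adhesion protein induced by TGF-beta, was at 43.5 and 50.5 CPM in wild type and 77.5 and 80.6 CPM in knockout (log2 fold change 0.75, adjusted p = 0.00306). Nid1, a linker of the basement membrane, was at 651 and 672 CPM in wild type and 479 and 464 CPM in knockout (log2 fold change -0.49, adjusted p = 0.00141). Lamb1, a laminin chain, was at 383 and 392 CPM in wild type and 315 and 267 CPM in knockout (log2 fold change -0.41, adjusted p = 0.0204). Itga6, an integrin that binds laminin, was at 51.3 and 63.7 CPM in wild type and 30.8 and 20.9 CPM in knockout (log2 fold change -1.15, adjusted p = 0.00716). These 3 genes of the basement membrane were higher in the knockout before injury (0.32, 0.55 and 0.81). Eln, elastin, was at 126 and 161 CPM in wild type and 89.2 and 61.7 CPM in knockout (log2 fold change -0.92, adjusted p = 0.0257), and Postn, periostin, one of the most abundant transcripts here, at 8533 and 8829 CPM in wild type and 6445 and 7512 CPM in knockout (log2 fold change -0.32, adjusted p = 0.0356). The call of Postn was lost under 11 of 20 alternatives and that of Eln under 9, both with the day 7 libraries alone. Of 26 collagen genes 1 rose (3.85%) and 2 fell (7.69%).

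Beside the matrix genes, the fibro-adipogenic markers split: Pdgfra, Dpt and Gsn rose, and Pi16 and Mfap5 fell, out of 12 tested (25.0% and 16.7%, against 4.80% and 2.66% of all genes). Pi16, a marker of adventitial fibroblasts, was at 52.1 and 50.1 CPM in wild type and 14.97 and 17.3 CPM in knockout (log2 fold change -1.66, SE 0.21, adjusted p = 0.00281). Mfap5, a microfibril protein of the same cells, was at 585 and 579 CPM in wild type and 347 and 404 CPM in knockout (log2 fold change -0.63, adjusted p = 0.00192), with no overlap between genotypes. Both calls held under all 20 alternatives. Pdgfra, the receptor that defines these progenitors, was at 37.7 and 39.7 CPM in wild type and 55.0 and 51.9 CPM in knockout (log2 fold change 0.46, adjusted p = 0.0254), a call kept by 9 of 20.

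Among stress programs that share Sestrins as targets, those of ATF4 and p53 had called genes in both directions, and that of NRF2 only higher ones. ATF4 is the transcription factor of amino acid shortage and the integrated stress response: of its 28 tested targets 8 rose (28.6%, against 4.80% of all genes) and 3 fell (10.7%, against 2.66%), Sesn2 being among those that fell (median 0.26). Asns, asparagine synthetase, was at 20.4 and 22.3 CPM in wild type and 37.5 and 37.8 CPM in knockout (log2 fold change 0.82, SE 0.10, adjusted p = 0.00205). Atf4 itself was at 327 and 337 CPM in wild type and 409.9 and 439 CPM in knockout (log2 fold change 0.35, adjusted p = 0.0071). Ddit3, a factor of stress-induced death, was at 22.4 and 24.7 CPM in wild type and 30.5 and 35.3 CPM in knockout (log2 fold change 0.48, adjusted p = 0.0208). Fgf21, a hormone of nutrient stress, was at 1.95 and 1.59 CPM in wild type and 5.10 and 9.07 CPM in knockout (log2 fold change 1.99, adjusted p = 0.0145). Each was higher in both knockout libraries. In contrast Vldlr, a lipoprotein receptor, was at 72.8 and 62.2 CPM in wild type and 27.3 and 29.1 CPM in knockout (log2 fold change -1.26, adjusted p = 0.000547). Slc7a5, which imports leucine, was at 367 and 323 CPM in wild type and 218 and 201 CPM in knockout (log2 fold change -0.72, adjusted p = 0.00104). Asns, Vldlr and Slc7a5 kept their calls under all 20 alternatives; without wild-type replicate 1 only 1 of the 28 targets rose, while 3 fell.

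Of 27 NRF2 targets, genes of the antioxidant response, 6 rose (22.2%, against 4.80% of all genes) and 0 fell. Hmox1, heme oxygenase 1, was at 139 and 147 CPM in wild type and 256 and 291 CPM in knockout (log2 fold change 0.93, SE 0.07, adjusted p = 0.000272), whereas at day 0 it was lower in the knockout, at 324 and 335 CPM in wild type and 166 and 169 CPM in knockout. Txnrd1, thioredoxin reductase, was at 164 and 155 CPM in wild type and 201 and 212 CPM in knockout (log2 fold change 0.38, adjusted p = 0.0119). Srxn1, sulfiredoxin, was at 90.1 and 101 CPM in wild type and 127 and 134 CPM in knockout (log2 fold change 0.45, adjusted p = 0.0115). With all 12 libraries no gene of the list was called, and with the day 7 libraries alone 1 was.

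Of 26 p53 targets 5 rose (19.2%, against 4.80% of all genes) and 4 fell (15.4%, against 2.66%), the 2 Sestrins among the latter. Gdf15, a stress cytokine, was at 15.1 and 16.7 CPM in wild type and 25.4 and 27.8 CPM in knockout (log2 fold change 0.74, adjusted p = 0.0033). Pmaip1, the death protein Noxa, was at 41.0 and 36.9 CPM in wild type and 60.1 and 62.8 CPM in knockout (log2 fold change 0.66, adjusted p = 0.00676). Cdkn1a, the cell cycle inhibitor p21, was at 481 and 495 CPM in wild type and 597 and 619.7 CPM in knockout (log2 fold change 0.32, adjusted p = 0.0119). Btg2, an antiproliferative factor, fell, at 308 and 329 CPM in wild type and 242 and 234 CPM in knockout (log2 fold change -0.42, adjusted p = 0.00329). With all 12 libraries the calls of Gdf15, Cdkn1a and Btg2 were lost, and that of Cdkn1a also with the day 7 libraries alone. Of 41 genes of GATOR, Ragulator and mTOR, the complexes through which Sestrins act, 1 rose and 1 fell (2.44% each way, against 4.80% and 2.66% of all genes). These counts do not exceed the shares of all genes and are not read as a change of the complexes. The called genes were Deptor, an mTOR inhibitor, with log2 fold change 0.28, adjusted p = 0.0303, and Rragd, a Rag GTPase, with log2 fold change -0.63, adjusted p = 0.00881. The call of Deptor was lost under 10 of 20 alternatives and that of Rragd under 7, where its adjusted p reached 0.944.

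Of 26 glycolysis genes 8 rose (30.8%, against 4.80% of all genes) and 0 fell, calls that depended on the libraries in the fit. Slc2a3, a glucose transporter, was at 33.4 and 30.0 CPM in wild type and 46.7 and 45.6 CPM in knockout (log2 fold change 0.54, adjusted p = 0.0046). Slc16a3, which exports lactate, was at 9.99 and 11.7 CPM in wild type and 20.2 and 17.5 CPM in knockout (log2 fold change 0.80, adjusted p = 0.0098). Tpi1, triosephosphate isomerase, was at 323 and 381 CPM in wild type and 534 and 463 CPM in knockout (log2 fold change 0.50, adjusted p = 0.0136). No gene of the list was called with the day 7 libraries alone, 1 without wild-type replicate 1 and 12 without knockout replicate 2. Among 22 HIF targets, genes induced by low oxygen, 4 rose (18.2%) and 2 fell (9.09%, against 2.66% of all genes). Vegfa, the vascular growth factor, was at 67.2 and 68.0 CPM in wild type and 109 and 102 CPM in knockout (log2 fold change 0.64, SE 0.07, adjusted p = 0.00094) and passed under all 20 alternatives.

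Of 36 tested chemokines, cytokines and growth factors 9 rose, 2 fell and 25 were not called (median 0.33); these are 25.0% and 5.56% of the list, against 4.80% and 2.66% of all genes. Besides Ccl8 and Il11, Cxcl12, which retains cells that carry Cxcr4, was at 89.9 and 95.5 CPM in wild type and 146 and 162 CPM in knockout (log2 fold change 0.73, adjusted p = 0.000779). Cxcl14 was at 19.02 and 22.2 CPM in wild type and 34.0 and 37.9 CPM in knockout (log2 fold change 0.80, adjusted p = 0.00279). Il33, an alarmin of stromal cells, was at 21.5 and 27.4 CPM in wild type and 46.4 and 42.6 CPM in knockout (log2 fold change 0.87, adjusted p = 0.00344). Ccl2, which attracts monocytes, was at 38.8 and 44.9 CPM in wild type and 63.8 and 64.3 CPM in knockout (log2 fold change 0.61, adjusted p = 0.0123). The knockout libraries were the higher ones for all 4. Cxcl10, a chemokine induced by interferon, fell, at 108 and 116 CPM in wild type and 82.4 and 86.0 CPM in knockout (log2 fold change -0.41, adjusted p = 0.00969), as did Igf1, at 179 and 177 CPM in wild type and 130.5 and 146 CPM in knockout (log2 fold change -0.36, adjusted p = 0.03), a call kept by 7 of 20 alternatives. Of 28 NF-kB targets 5 rose (17.9%) and 1 fell (3.57%), and without wild-type replicate 1 none rose.

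Early response genes went both ways, 4 of 26 rising (15.4%, against 4.80% of all genes) and 6 falling (23.1%, against 2.66%). Nr4a2, an orphan nuclear receptor, was at 306 and 344 CPM in wild type and 633 and 625 CPM in knockout (log2 fold change 0.95, SE 0.06, adjusted p = 0.000178). Egr1, a factor induced by growth signals, was at 2010.0 and 2108 CPM in wild type and 1597 and 1512 CPM in knockout (log2 fold change -0.41, adjusted p = 0.00418). Klf6 was at 688 and 706 CPM in wild type and 523 and 557 CPM in knockout (log2 fold change -0.37, adjusted p = 0.00676). Dusp6, the phosphatase that damps ERK and is induced by it, was at 140.1 and 145 CPM in wild type and 93.3 and 92.5 CPM in knockout (log2 fold change -0.62, SE 0.06, adjusted p = 0.000894), one of 22 tested MAP kinase feedback genes, of which 3 rose (13.6%) and 2 fell (9.09%), with a median of 0.13. Both knockout libraries were above wild type for Nr4a2 and below it for Egr1, Klf6 and Dusp6.

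Of 36 mitosis genes 1 rose and 0 fell (2.78% and 0%), and of 34 genes of DNA replication 2 rose and 1 fell (5.88% and 2.94%), shares near the 4.80% and 2.66% of all genes. None of 49 nuclear genes of the respiratory chain, 50 of the mitochondrial ribosome, 21 of the citric acid cycle or 19 of the circadian clock was called by edgeR at an adjusted p under 0.05. At an unadjusted p under 0.05 there were 4, 0, 4 and 4 in these 4 lists, and DESeq2 called 2, 0, 0 and 1. Of 75 cytosolic ribosomal protein genes 2 fell, Rps19 (log2 fold change -0.42, adjusted p = 0.0439; lost under 9 of 20 alternatives) and Rps27a (log2 fold change -0.30, adjusted p = 0.0339; lost under 11), while 74 of the 75 had a negative fold change, with a median of -0.18. All 12 tested genes of mitochondrial DNA had negative fold changes, with a median of -0.47, 10 of them at an unadjusted p under 0.05, and 1 fell, against 4 by DESeq2 and 0 to 7 over the alternatives: mt-Nd4, at 484 and 527 CPM in wild type and 314 and 375 CPM in knockout (log2 fold change -0.55, adjusted p = 0.0249), 62.8% of whose 31-base words lie in other transcripts too.

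**Figure D5:**
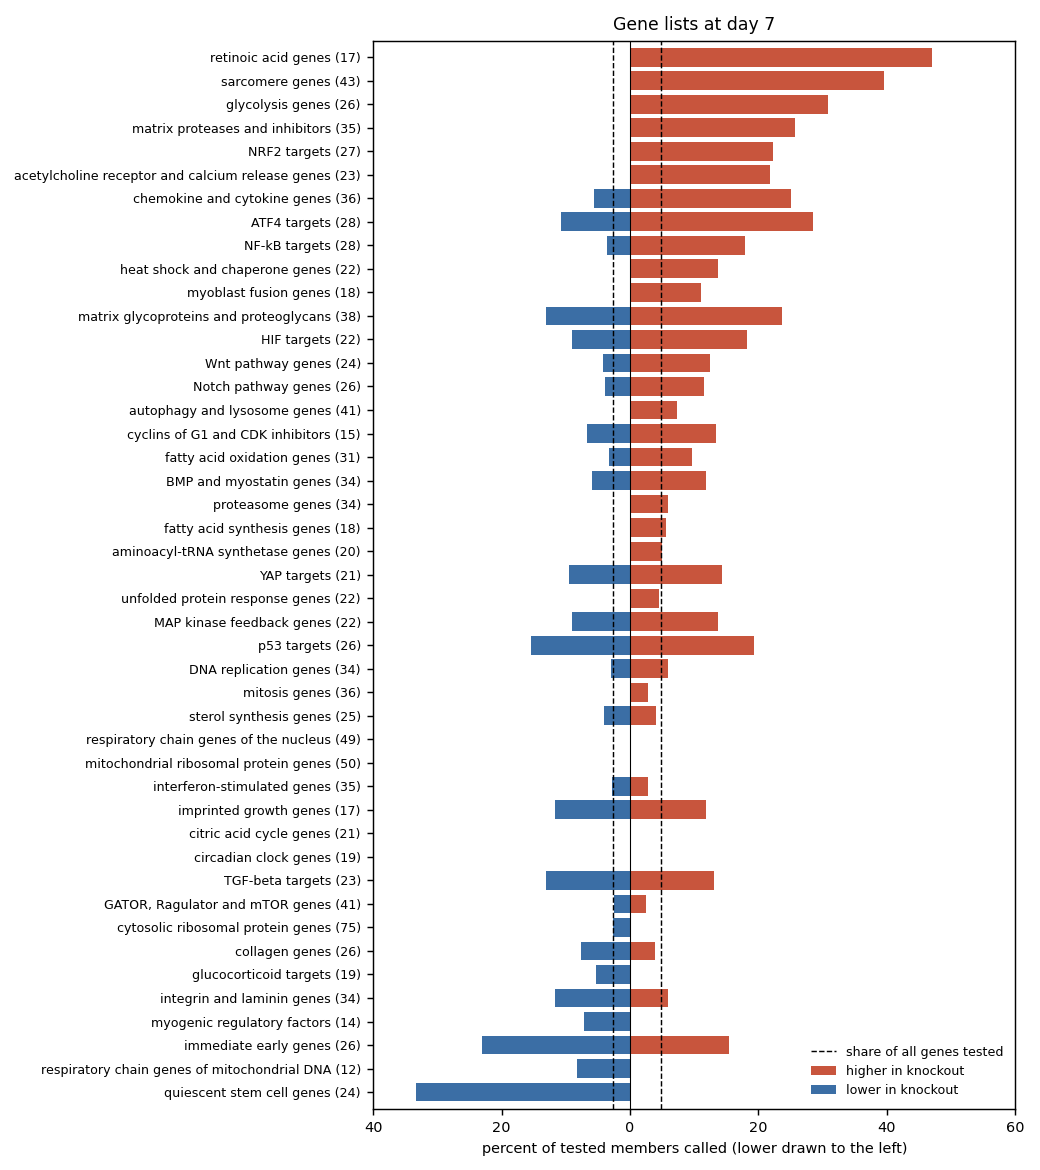
Percent of the tested members of each gene list with at least 10 tested that were called higher (red, right) or lower (blue, left) in the knockout at day 7, with the number tested in brackets; dashed lines mark the shares of all genes tested, 4.80% and 2.66%. Retinoic acid and sarcomere genes have the longest red bars and quiescent stem cell genes the longest blue bar.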

How the data were processed

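The authors quantified reads with kallisto 0.46.1 on mm10 (GRCm38.p6), per the submitters' processing notes, and deposited estimated counts, TPM and log2-scale regularised values corrected for a batch that is not named in the labels or the table. The estimated counts were rounded. The deposited log2 values and TPM served alternatives, and TPM also marker sums. Of 30154 identifiers 29808 were found in GENCODE M21.

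The 8 libraries of days 0 and 7 were fitted as 4 groups with edgeR 4.0.16 (filterByExpr, TMM, robust quasi-likelihood, 4 residual degrees of freedom), in R 4.3.3. A gene was called where the Benjamini-Hochberg adjusted p over all 15672 genes was under 0.05. CPM use TMM-scaled totals; each SE was derived from the F statistic. Without strand information, overlapping and antisense genes cannot be told apart. The fits were tested on simulated data, where the share of false calls exceeded the nominal rate; the pass mark of this test was loosened after its result was seen.

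Members and lists (46 gene lists, 13 of markers) were chosen with earlier results of these data known. The rule named the Sestrins, the 10 rising and 10 falling genes of smallest adjusted p (at least 2-fold, no overlap, mean of at least 1 CPM in the higher group), the 5 each way of largest change (at least 5 CPM), up to 3 called genes each way per list, and Pax7, Myf5, Myod1 and Myog, passing over unnamed models: 146 genes. Of these the text gives a part, and 42 list members beside them, both chosen after values were seen. Alternatives were DESeq2 1.42.0, limma 3.58.1 on log2 TPM (pseudocounts 1 and 0.1) or on the deposited log2 values, other scalings, filters and designs, and leaving out each library.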

Additional observations from a re-analysis of the deposited data

Results flagged for a closer look

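The genotype difference at day 7 differed from that at day 0, by the interaction term of the edgeR fit, for 24 of the 29 genes for which this test is given. Most of the 29 were named for their day 7 difference, which the interaction contains, so this count is not to be read against the 24.8% of all genes tested. Of all 146 genes named by the rule 105 were called; the 29 (the Sestrins, the leading genes, those of largest change and the myogenic factors) were kept after these results had been seen. The values are day 7 difference minus day 0 difference on the log2 scale. The interactions of Akr1c14, Dbh, Myh14, Greb1 and Car12, which were higher in the knockout before injury and lower after it, were Akr1c14 -3.50, Dbh -4.41, Myh14 -3.98, Greb1 -6.74 and Car12 -1.99 (adjusted p between 1.27e-05 and 0.000182). Dbh shows this in the libraries, at 5.70 and 6.56 CPM in wild type and 26.9 and 25.1 CPM in knockout at day 0. For Spp1, Crabp1, S100a4, Hpgd and Tnn, lower in the knockout before injury and higher after it, they were Spp1 2.03, Crabp1 5.55, S100a4 1.99, Hpgd 1.91 and Tnn 5.14 (adjusted p between 7.8e-06 and 0.000951). Spp1 was at 74.7 and 77.9 CPM in wild type and 42.1 and 38.8 CPM in knockout at day 0. For Sesn1, Sesn2 and Chrdl2, lower on both days, they were Sesn1 -0.96, Sesn2 -0.73 and Chrdl2 -0.76 (adjusted p between 0.00376 and 0.0353), and for Mylk and Rasd1, higher on both days, Mylk 0.48 and Rasd1 0.90 (adjusted p between 0.0034 and 0.00519). Xlr3b, Ccl8, Slc2a12, Iqgap2 and Fbxw17 were not called at day 0 and had interactions of Xlr3b 3.09, Ccl8 3.28, Slc2a12 -1.36, Iqgap2 -1.11 and Fbxw17 -1.53 (adjusted p between 0.000385 and 0.0012). The myogenic factors Pax7, Myf5, Myog and Myod1, called at day 0 and not at day 7, had Pax7 0.74, Myf5 0.92, Myog 1.19 and Myod1 -0.63 (adjusted p between 0.000385 and 0.0447). Mmp10 and Mmp13 had no counts at day 0, so that their interaction could not be estimated, although both are counted among the 29.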

How the results depend on the processing

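Of 3688 pairs of a named gene and an alternative, 2937 stayed on the same side of the threshold, 750 lost the call, 1 gained it. The sign of the fold change differed from the reported one in 6 pairs (4 genes), called in neither fit. No gene called both in the reported fit and in an alternative differed in sign between the pair. The number of genes called (1169, of which 752 higher and 417 lower) was 761 (248 lower) with an offset for gene length, 429 (288 higher, 141 lower) with the day 7 libraries alone, 280 (172 and 108) with all 12 libraries, 211 (130 and 81) with at least 2-fold, 686 (428 and 258), 641 (396 and 245) and 433 (269 and 164) with limma on log2 TPM at a pseudocount of 1, of 0.1 and without filter, and 595 (415 and 180) on the batch-corrected values. DESeq2 called 1607. Leaving out 1 library gave 406 to 1792 genes, 283 to 1182 higher and 123 to 610 lower. The causes were not tested. With all 12 libraries Sesn2 kept its log2 fold change of -4.42 at an adjusted p of 0.17. Interactions called among the 29 genes numbered 18 to 25.

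Replicate numbers are shared across groups, but the labels do not say that they pair libraries, and deviations of replicate 1 from its group mean correlated between -0.151 (wild type and knockout at day 7) and 0.0396. With the replicate block 629 genes were called, 427 higher and 202 lower, 607 of them among the 1169. With 2 libraries per genotype, a gene that misses the threshold is not shown to be equal.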

Other observations

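Genes of bone and cartilage were looked at after the rise of Mmp13 and Spp1, both also known from mineralising tissue, had been seen, so they were chosen with values in view. The 14 looked at include Mmp13 and Spp1, given above, and the others are given here. Bglap, osteocalcin, had 0 and 0 estimated counts in wild type and 329 and 46 in knockout, and its near copy Bglap2 had 0 and 0 estimated counts in wild type and 216 and 53 in knockout; how the counting divided reads between such copies is not known. Ibsp, bone sialoprotein, had 0 and 0 estimated counts in wild type and 147 and 8 in knockout, Dlx5, a factor of bone formation, 0 and 0 estimated counts in wild type and 17 and 28 in knockout, and Ostn, a secreted peptide of bone and muscle, 8 and 2 estimated counts in wild type and 83 and 74 in knockout. Knockout replicate 1 held most of the counts of Bglap, Bglap2 and Ibsp. Runx2, the master factor of bone formation, had 390 and 300 estimated counts in wild type and 385 and 335 in knockout, and Sp7 5 and 0 estimated counts in wild type and 12 and 0 in knockout; these counts are not scaled for depth, which was lowest in knockout replicate 2.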
